A study of Mus musculus with 14 samples.

Results

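Line 649 is a culture of malignant B cells from 1 Eµ-Myc Tg/+ mouse, an animal in which the immunoglobulin heavy chain enhancer drives a Myc transgene in the B lineage. The line was chosen by its count of Asns, the gene of asparagine synthetase, of which its RNA library held 1 count. Asrgl1, an asparaginase gene, was named with it. It is 1 of 14 samples in the series and was set, over 46959 gene entries, against the other 11 cultured lines, each from a different Eµ-Myc Tg/+ mouse (115, 136, 309, 504, 505, 506, 517, 524, 549, 688 and 801). Line 801 served as a second reference, picked because its profile was the nearest to line 649 outside line 506 and the lines like it. All 12 lines were untreated and had 24 h of culture with 0.37 mM added L-asparagine, and the labels give their genotype as WT beside the transgene in their names. The sources used here give neither the ages of the mice nor the clonality of the lines. The 2 lymphomas grown from line 506 in mice entered no comparison here, apart from 1 alternative fit.

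Each line had 1 library. Line 649 held 32614751 counts on genes, and the other lines held 24597230 to 32070893. Genes with at least 1 count numbered 17927 in line 649 and 17050 to 18714 in the other lines. Mitochondrial genes took 1.63% of the counts in line 649 and 0.862% to 2.10% in the other lines. Levels are given as CPM, the counts of a gene per 1e6 counts of its library after TMM scaling (a trimmed mean of ratios between libraries). A gene with 0 counts in line 649 could stand at up to 0.0943 CPM, the value of 3 counts. Lines 506, 549 and 688 shared their leading heavy chain segment Ighv5-17 and their leading light chain segment Igkv9-120, and their profiles were alike (Spearman rho 0.79 to 0.88 over the 500 most variable genes). The sources used here do not say whether they share an origin, and results that rest on them are given with and without them.

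Markers placed line 649 in the B lineage, and its malignancy was not tested. Pax5, the factor that fixes B cell identity, stood at 680 CPM in line 649 and at 435 to 675 CPM in the other lines. Cd79a stood at 288 CPM in line 649 and at 316 to 868 CPM in the other lines. The T cell genes Cd3e, Cd4 and Cd8a, the macrophage genes C1qa and Fcgr1, the neutrophil genes S100a8 and S100a9 and the fibroblast genes Col1a1 and Dcn had no count in line 649. No count was held by 13 of 20 T cell, 10 of 20 macrophage, 11 of 14 neutrophil and 12 of 18 stroma and endothelium genes. Other members were present, such as Cd2 (32.2 CPM, 5.38 to 106 in the other lines), Ctss (138, 94.6 to 279) and Pecam1 (70.2, 25.9 to 152). Apoe, of the macrophage list, was above the range, at 42.9 CPM against 14.5 to 35.4 CPM. Summed over whole marker lists, line 649 held 42.8 CPM of 20 T cell genes (13.8 to 110 CPM in the other lines), 190 CPM of 20 macrophage genes (135 to 333), 0.126 CPM of 14 neutrophil genes (0.0812 to 4.92) and 0.314 CPM of 9 erythroid genes (0.357 to 82.5). The sums were 0.818 CPM for 12 genes of natural killer cells (0.111 to 31.8), 135 CPM for 12 of dendritic cells (114 to 305) and 81.6 CPM for 18 of stroma and endothelium (41.8 to 463).

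Asparagine synthetase builds asparagine from aspartate, with glutamine as the donor of nitrogen. Cells without it depend on asparagine from outside, and the enzyme asparaginase, which removes asparagine from the blood, is used against lymphoid leukaemia for this reason. When amino acids run short, the kinase Gcn2 phosphorylates eIF2 and the factor Atf4 is made, which binds the promoters of Asns and of many genes of amino acid synthesis, uptake and tRNA charging. Asrgl1 encodes an enzyme that splits asparagine into aspartate and ammonia and also cleaves isoaspartyl peptides.

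A search across all genes for the pattern of Asns found 3 genes with 3 counts or fewer in line 649 and at least 5 CPM in each of the other 11 lines. They were Asns, Asrgl1 and Trim32, out of 8076 genes that reached 5 CPM in every other line (0.0371%). Asns and Asrgl1 chose the line, so their values are a description and carry no test. The same 3 genes came up at 2 CPM and at 10 CPM. Without lines 506, 549 and 688, Cdk6 joined them.

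Asns lies on chromosome 6 (chr6:7675169-7693254, minus strand, mm10). It had 1 count in line 649, which is 0.0314 CPM. In the other lines it stood at 211 CPM in line 115, 207 in 136, 268 in 309, 60.2 in 504, 97.1 in 505, 60.8 in 506, 117 in 517, 30.4 in 524, 111 in 549, 50.1 in 688 and 36.1 in 801. Every other line was far above line 649, and the other lines themselves spanned 30.4 to 268 CPM. The ratio of line 649 to the other lines pooled was 0.000281, with an exact 95% interval from 7.11e-06 to 0.00156 that covers counting error only. In bulk RNA, fewer cells that express a gene and less RNA per cell cannot be told apart, so the 1 count does not say whether single cells were at 0.

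Asrgl1 lies on chromosome 19 (chr19:9109868-9135636, minus strand) and also had 1 count in line 649 (0.0314 CPM). The other lines held 154 CPM in line 115, 137 in 136, 71.8 in 309, 54.4 in 504, 74.9 in 505, 41.4 in 506, 48.0 in 517, 69.8 in 524, 72.3 in 549, 66.8 in 688 and 22.9 in 801. No other line came near 0, and line 801 was the lowest of them. The ratio of line 649 to the pooled other lines was 0.000427 (exact 95% interval 1.08e-05 to 0.00238). Aspg, the gene of another asparaginase, had 0 counts in line 649 and at most 0.0319 CPM elsewhere, so it was not detectable in any line.

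Trim32, a ubiquitin ligase of the tripartite motif family, lies on chromosome 4 (chr4:65604986-65616238, plus strand) inside the span of Astn2, a gene of the opposite strand with no count in any line. It had 0 counts in line 649. The other lines held 38.9 CPM in line 115, 59.4 in 136, 11.9 in 309, 20.9 in 504, 21.8 in 505, 18.9 in 506, 40.3 in 517, 20.3 in 524, 21.3 in 549, 17.3 in 688 and 36.8 in 801. Against 3 counts in line 649 as the floor, Trim32 was at least 226-fold lower than the median of the other lines and at least 126-fold lower than the lowest of them. edgeR's quasi-likelihood test over all genes gave Trim32 an adjusted p of 0.0371, with line 649 lower than 11 of 11 lines. The call ended when line 115, 504, 505, 506, 517, 524, 549, 688 or 801 was left out (adjusted p 0.0502 to 0.0941), and without lines 506, 549 and 688 together the adjusted p was 0.240. It also ended with scaling by total counts (0.0503) and in limma-voom (0.761), whereas DESeq2 gave 1.9e-05.

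**Figure D1:**
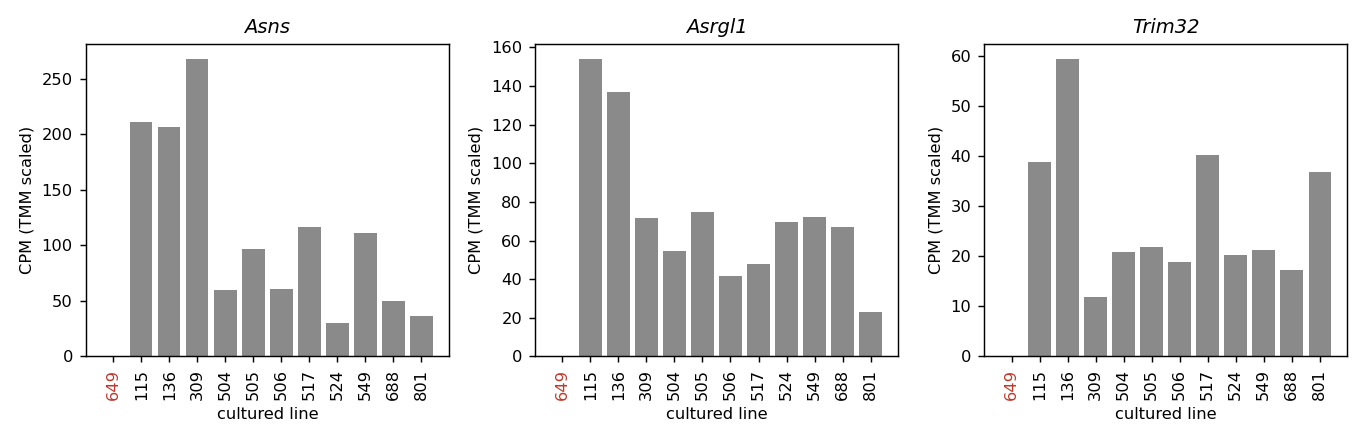
Level of Asns, Asrgl1 and Trim32 in each cultured line, in CPM on a linear axis that starts at 0, with 1 bar per library and line 649 at the left of each panel. The bars of line 649 are at or next to 0 in all 3 panels, and the lowest of the other lines stands at 30.4, 22.9 and 11.9 CPM.

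The stretches just before the starts of these 3 genes are shown because these are the genes at 0 or 1 count in line 649 alone, on 3 different chromosomes. They are the 250 bases before the RefSeq start on GRCm38.p6, written 5′ to 3′ on the strand of the gene, with each CG pair in capitals. For Asns and Asrgl1 the counted span reaches beyond the RefSeq start, to 7693254 and 9135636, so it overlaps the last part of the stretch.
Asns, chr6:7693210-7693459 (minus): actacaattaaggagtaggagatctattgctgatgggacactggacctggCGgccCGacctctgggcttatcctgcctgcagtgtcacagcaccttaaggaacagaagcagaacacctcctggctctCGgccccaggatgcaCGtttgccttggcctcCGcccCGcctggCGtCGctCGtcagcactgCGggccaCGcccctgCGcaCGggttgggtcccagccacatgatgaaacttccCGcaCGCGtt
Asrgl1, chr19:9135567-9135816 (minus): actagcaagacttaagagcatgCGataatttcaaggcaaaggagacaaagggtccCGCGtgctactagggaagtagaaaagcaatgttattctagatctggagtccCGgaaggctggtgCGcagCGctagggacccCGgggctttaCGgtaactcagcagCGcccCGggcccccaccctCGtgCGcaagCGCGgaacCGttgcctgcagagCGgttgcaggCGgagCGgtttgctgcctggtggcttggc
Trim32, chr4:65604736-65604985 (plus): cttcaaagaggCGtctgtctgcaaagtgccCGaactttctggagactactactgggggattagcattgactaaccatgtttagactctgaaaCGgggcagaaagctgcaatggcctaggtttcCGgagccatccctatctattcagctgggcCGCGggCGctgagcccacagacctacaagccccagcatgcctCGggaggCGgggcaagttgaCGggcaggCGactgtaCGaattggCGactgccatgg
All 3 were rich in CG pairs, with 16 in Asns, 18 in Asrgl1 and 13 in Trim32, against a median of 6 over all 32851 RefSeq promoters cut to the same 250 bases. At least as many CG pairs as in Asns were held by 25.4% of all promoters, as in Asrgl1 by 21.7% and as in Trim32 by 31.5%. GC content was 61.6% in Asns, 59.6% in Asrgl1 and 57.2% in Trim32. The amino acid response element TGATGNAA, the kind of site that Atf4 binds, was searched on both strands. Asns held 1 match, TGATGAAA, on the strand of the gene 23 to 16 bases before the RefSeq start, in the part that overlaps the counted span. Asrgl1 and Trim32 held none. Of all promoters, 3.45% (1134) held a match. DNA methylation and DNA sequence of the lines were not measured, so whether these stretches are intact or methylated in line 649 was not tested.

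Of 17 genes of the DNA methylation machinery that reached 5 CPM in some line, 0 stood above and 0 below the range of the other lines, where 8.59% and 7.07% of all genes without Asns and Asrgl1 did, so a list of this size says little. Their median difference was 0.08 on the log2 scale, against 0.01 over all genes with a mean of at least 1 CPM. Dnmt1, which copies methylation after replication, stood at 482 CPM in line 649 and 390 to 705 CPM elsewhere. Dnmt3b, which sets new methylation, stood at 16.5 CPM in line 649 and at 7.30 to 23.1 CPM elsewhere. Tet2, which oxidises methylated cytosine, stood at 36.1 CPM in line 649 and at 18.6 to 102 CPM elsewhere.

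Most neighbours of Asns and Asrgl1 lay within the range of the other lines. Within 2 Mb of Asns, 12 other genes reached 5 CPM in some line. Of these, 8 lay within the range of the other lines, 2 above and 2 below, where 8.58% of all genes lay above and 7.09% below. Of the 442 chromosome 6 genes with a mean of at least 5 CPM, 2.71% lay above and 15.2% below. The nearest, C1galt1, a glycosyltransferase 151 kb away, stood at 189 CPM in line 649 and at 63.2 to 226 CPM in the other lines. Mios, a subunit of the amino acid sensing complex GATOR2, 515 kb away, stood at 85.1 CPM against 51.8 to 90.3 CPM. On the other side, Shfm1, a proteasome subunit 1096 kb away, stood at 75.3 CPM in line 649 and at 92.0 to 168 CPM elsewhere, and Sdhaf3, an assembly factor of succinate dehydrogenase, at 4.40 CPM against 4.98 to 11.4 CPM. The genes above the range were Umad1, at 43.1 CPM in line 649 and 12.1 to 41.0 CPM elsewhere, and Glcci1, at 11.8 CPM against 0.781 to 10.9 CPM. Rpa3, Ica1, Gm8652, Gm9825 and A430035B10Rik lay within it. Slc25a13, a mitochondrial carrier of aspartate and glutamate 1457 kb away, had 0 counts in line 649 and in lines 115, 136, 505, 506, 688 and 801. It stood at 40.2 CPM in line 309, 50.5 in 504, 4.81 in 517, 16.3 in 524 and 0.111 in 549. The pattern of Slc25a13 therefore did not set line 649 apart.

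Within 2 Mb of Asrgl1, 57 genes reached 5 CPM, 53 of them within the range of the other lines, 1 above and 3 below. Of the 360 chromosome 19 genes with a mean of at least 5 CPM, 0.833% lay above and 6.11% below. Ahnak, a very large scaffold protein gene 32 kb away, stood at 379 CPM in line 649 and at 31.3 to 284 CPM in the other lines. Fads1 and Fads2, the desaturases of polyunsaturated fatty acid synthesis, were below the range, at 22.8 CPM against 26.7 to 95.9 CPM for Fads1 and at 8.49 CPM against 11.4 to 128 CPM for Fads2. Only 2 of the genes within 2 Mb of Trim32 reached 5 CPM, Tlr4 and a ribosomal protein pseudogene, and both lay within the range.

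**Figure D2:**
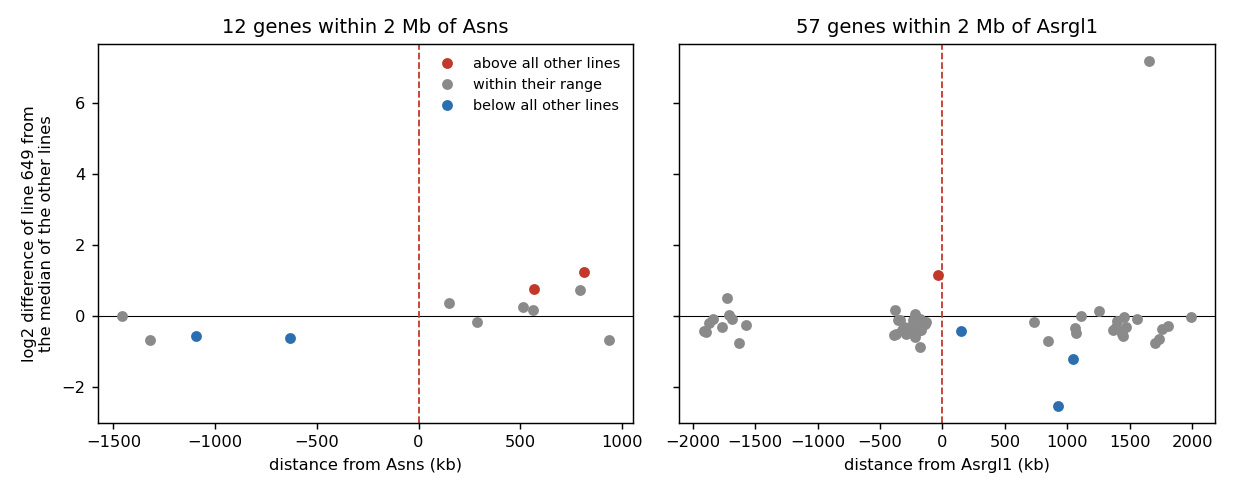
Difference of line 649 from the median of the other 11 lines, on the log2 scale, for the genes within 2 Mb of Asns and of Asrgl1 that reached 5 CPM in some line, against their distance in kb from that gene (dashed line at 0, lower coordinates to the left). Of 12 genes around Asns, 8 lay within the range of the other lines, and of 57 around Asrgl1, 53 did. The high point at the right is Cd6, at 19.8 CPM in line 649 and between 0 and 121 CPM in the other lines.

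Over all genes, line 649 was tested with edgeR's quasi-likelihood test against the 11 other lines, whose spread is the only measure of error, since line 649 has 1 library. Of 15648 genes tested, 3 passed the adjusted threshold of 0.05 (0.0192%). Line 649 was the higher side for 2 of them (0.0128%) and the lower side for 1 (0.00639%), and 573 passed an unadjusted p of 0.05 (3.66%). The called genes were Ighv1-80, Lrp2 and Trim32. Ighv1-80 and Lrp2 entered the test only through their counts in line 649, so their calls are no support for a difference. Besides Asns and Asrgl1, DESeq2 called 79 genes and limma-voom 23. The limma-voom calls included Ighv1-80, Lrp2 and Phlda3, which entered the test only through line 649 and are no support either. How many other calls of either tool entered so was not counted. The test called 0 genes without lines 506, 549 and 688, and also 0 without lines 549 and 688, with 499 and 496 genes at an unadjusted p under 0.05.

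Ighv1-80, a variable segment of the immunoglobulin heavy chain on chromosome 12, was present in line 649 alone, the 1 such gene among 9445 that reached 5 CPM there (0.0106%). It had 9321 counts (293 CPM) in line 649, 2 counts in line 688 and 0 in the other 10 lines, and took 99.6% of the heavy chain segment counts of line 649. The ratio of line 649 to the pooled other lines was 47836, with an exact 95% interval from 13239 to 395057. In line 801 Ighv1-64 took 99.7% of the heavy chain segment counts. The light chain was less uniform. In line 649 Igkv9-120 took 54.4% of the kappa and lambda segment counts and Igkv3-12 took 39.2%. Igkv9-120 stood at 866 CPM in line 649, 1297 CPM in line 506, 588 CPM in line 549, 1288 CPM in line 688 and 6.65 CPM in line 801, and at or under 0.292 CPM in the remaining lines. Segments resemble each other, and the sources used here do not give how reads with several matches were counted.

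Lrp2, which encodes the endocytic receptor megalin, was low in absolute terms. It had 53 counts (1.67 CPM) in line 649, 1 count (0.0301 CPM) in line 801 and 0 in the other 10 lines.

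Counting without a model, line 649 stood above every other line for 956 of 11136 genes with 5 CPM or more on the higher side (8.58%) and below every other line for 789 (7.09%). Without lines 506, 549 and 688 the counts were 1138 and 1004. With scaling by total counts the numbers turned round, with 782 above and 922 below. At least 4-fold beyond the range, 5 genes were above and 7 below, and Asns, Asrgl1 and Trim32 were among the 7. The genes of this set are named here after their values were seen.

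Among the 4 further low genes, Insr, the insulin receptor, stood at 0.472 CPM in line 649 and at 5.89 to 46.2 CPM in the other lines (median 19.2). Coro1b, an actin regulator of the coronin family, stood at 7.36 CPM against 38.3 to 155 CPM (median 70.0), and Hip1, a clathrin adaptor, at 1.79 CPM against 7.5 to 181 CPM (median 14.2). The last was Gm43305, at 6.60 CPM against 38.9 to 231 CPM. The edgeR adjusted p was 0.373 for Insr, 0.279 for Coro1b, 0.757 for Gm43305 and 0.998 for Hip1. DESeq2 called Insr, Coro1b and Gm43305, and limma-voom called none of the 4.

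On the high side, Sulf2, an enzyme that trims sulfate from heparan sulfate, stood at 42.6 CPM in line 649 and at 0 to 6.45 CPM in the other lines (median 1.86). Col25a1, a membrane collagen, stood at 31.6 CPM in line 649 and at most at 5.24 CPM elsewhere, in line 801. Ltbp2, a matrix protein of the latent TGF-beta binding family, stood at 24.2 CPM against at most 5.16 CPM, in line 506. G530011O06Rik stood at 6.13 CPM against 0.102 to 0.947 CPM, and Ighv1-80 completed the 5. The edgeR adjusted p was 0.998 for Sulf2, Col25a1 and Ltbp2, and limma-voom called Col25a1 and G530011O06Rik.

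Genes of chromosome 1 stood higher in line 649 as a body. This was noticed in the data and then described, so it carries no test. Over the 573 chromosome 1 genes with a mean of at least 5 CPM, the median of line 649 lay 0.51 above the median of the other lines on the log2 scale, or 1.42-fold, with quartiles of 0.28 and 0.75. The same median in each other line, taken against the remaining lines, ran from -0.19 in line 136 to 0.067 in line 506. Line 649 was above every other line for 284 of the 573 genes (49.6%), against 580 of 9094 genes on the other chromosomes (6.38%), and below every other line for 3 (0.524%, against 8.12%). Chromosome 1 held 5.93% of these genes and 32.9% of the 864 above the range. The median was 0.52 without lines 506, 549 and 688, and 0.46 with scaling by total counts.

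The shift ran along the whole chromosome. In windows of 20 Mb the median of line 649 lay between 0.29, in the first window, and 0.62, in the last, and 42.4% to 61.2% of the genes of a window were above every other line. One window, from 100 to 120 Mb, held only 18 genes. On the other chromosomes of line 649 the medians ran from -0.24 on chromosome 19 to 0.061 on chromosome 13. Other lines had shifts of this size on other chromosomes, among them -0.84 on chromosome 13 in line 801, -0.79 on chromosome 19 in line 517, 0.56 on chromosome 18 in line 504 and 0.55 on chromosome 6 in line 309. The number of chromosome copies was not measured, and its part in these medians was not tested.

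**Figure D3:**
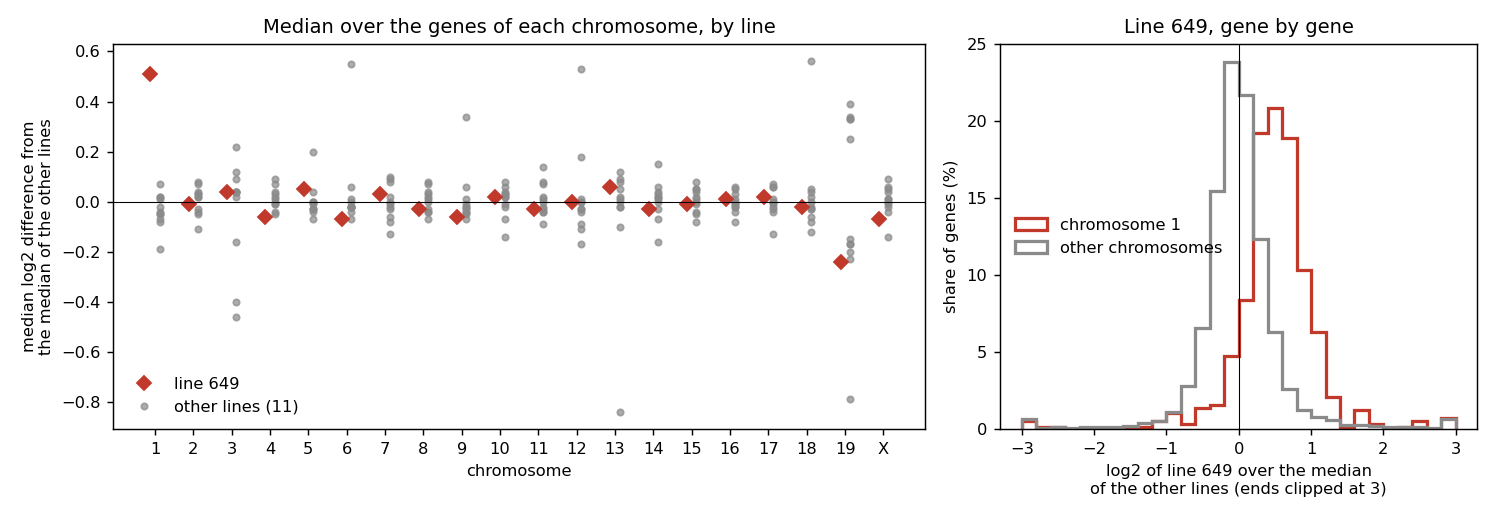
Left, median difference of each line from the median of the remaining lines, on the log2 scale, over the genes of each chromosome with a mean of at least 5 CPM, with line 649 as red diamonds and the other 11 lines as grey points. On chromosome 1 line 649 stands at 0.51, and the other lines stand between -0.19 and 0.067. Right, distribution over single genes, in percent of genes per bin, for chromosome 1 (red) and the other chromosomes (grey). It shows the log2 ratio of line 649 to the median of the other lines, without a prior count. Genes without a count in line 649 or in that median are left out. Segments of immunoglobulins and T cell receptors are kept here but not at the left. Ratios beyond the axis are drawn at its ends.

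No single chromosome 1 gene passed the adjusted threshold of edgeR. An unadjusted p of 0.05 was passed by 174 of the 573, 172 of them higher, against 3.66% of all genes tested. DESeq2 called 23 of them and limma-voom called 0. The smallest p belonged to Rbbp5, a core subunit of the enzymes that methylate histone H3 at lysine 4, with 134 CPM in line 649 and 61.3 to 81.8 CPM in the other lines (edgeR adjusted p = 0.0947). Ppp1r15b, which directs a phosphatase to eIF2 and so opposes the amino acid response, stood at 481 CPM in line 649 and at 215 to 311 CPM elsewhere (edgeR adjusted p = 0.181). Nuak2, a kinase of the AMPK family, stood at 47.9 CPM against 10.4 to 24.2 CPM, and Mdm4, an inhibitor of p53, at 366 CPM against 111 to 224 CPM. Cenpf, a kinetochore protein, stood at 203 CPM against 91.1 to 141 CPM.

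In the list of asparagine, aspartate and glutamine genes, those above the range were chromosome 1 genes. Besides Asns and Asrgl1, 28 genes of the list reached 5 CPM. Of these, 4 were above the range of the other lines (14.3%, against 8.59% over all genes without Asns and Asrgl1), and all 4, among them Glul, Adss and Dars, lie on chromosome 1, where the list has 5 such genes. Of the 23 genes on other chromosomes, 0 were above and 6 below, where 6.31% and 7.48% of all genes off chromosome 1 were. Without lines 506, 549 and 688, 5 of the 28 were above and 6 below, where 10.3% and 9.05% of all genes were. edgeR called none of the 29 tested. An unadjusted p of 0.05 was passed by 4 of the 29, 2 higher and 2 lower, against 3.66% of all genes tested. DESeq2 called Slc25a13 and limma-voom called 0.

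Glul, which makes glutamine from glutamate, stood at 200 CPM in line 649. In the other lines it stood at 100 CPM in line 115, 98.9 in 136, 98.4 in 309, 120 in 504, 91.4 in 505, 95.6 in 506, 77.6 in 517, 41.1 in 524, 68.6 in 549, 87.3 in 688 and 129 in 801. Line 649 was above all of them, and line 801 came next. Adss, which joins aspartate to IMP on the way to AMP, stood at 276 CPM in line 649 and at 145 to 219 CPM in the other lines, and Dars, which charges tRNA with aspartate, at 196 CPM against 134 to 187 CPM.

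Other enzymes of aspartate, glutamate and glutamine stood below the range or within it. Got2, the mitochondrial aspartate aminotransferase, stood at 208 CPM in line 649 and at 282 to 468 CPM in the other lines, and Got1, its cytosolic partner, at 164 CPM against 87.3 to 354 CPM. Gpt2, the mitochondrial alanine aminotransferase, stood at 4.12 CPM in line 649 and at 4.90 to 38.9 CPM elsewhere (median 15.6). Glud1, the glutamate dehydrogenase, stood at 172 CPM against 186 to 435 CPM, and Gfpt1, which passes glutamine nitrogen to hexosamines, at 27.8 CPM against 35.8 to 63.9 CPM. Asl and Adsl, lyases of argininosuccinate and adenylosuccinate, were just under the range, at 10.9 CPM against 11.1 to 25 CPM and at 99.4 CPM against 100 to 153 CPM.

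The other users of these amino acids lay within the range. Nars, which charges tRNA with asparagine, stood at 187 CPM in line 649 and at 179 to 406 CPM in the other lines. Ass1, which joins aspartate to citrulline, stood at 229 CPM against 71.8 to 365 CPM, and Cad, which starts pyrimidine synthesis, at 660 CPM against 346 to 722 CPM. Ppat, Gmps, Ctps and Pfas, the glutamine-dependent enzymes of nucleotide synthesis, stood at 233, 232, 233 and 247 CPM in line 649, each within the range. Gls2, Nit2, Adssl1, Nars2, Slc25a12, Slc25a13, Gatb, Gatc and Qrsl1 were within the range too. Gpt stood under 5 CPM in every line (2.77 CPM in line 649), as did Aspg and Aspa, of which Aspa had 0 counts in line 649.

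**Figure D4:**
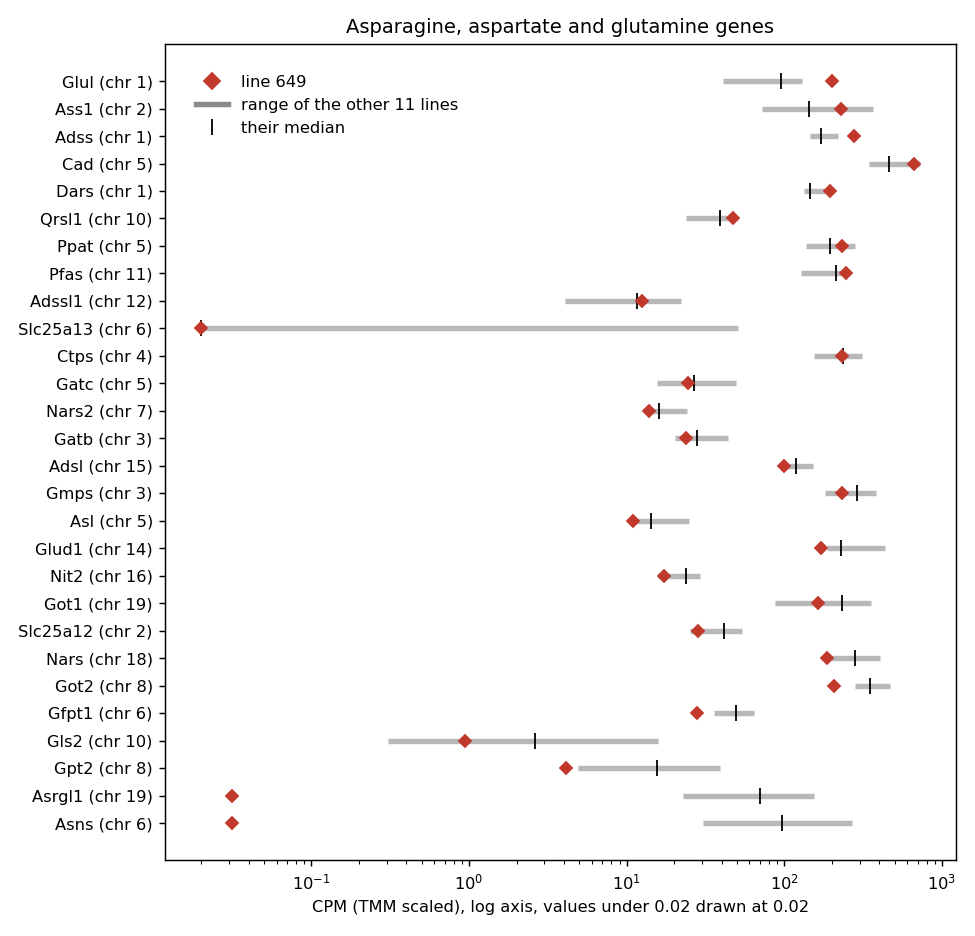
Level in CPM, on a log axis, of 28 asparagine, aspartate and glutamine genes that reached 5 CPM in some line, Asns and Asrgl1 included, with line 649 as red diamonds, the range of the other 11 lines as grey bars and their median as a black tick. The 3 diamonds above their bar (Glul, Adss and Dars) belong to chromosome 1 genes, and Asns and Asrgl1 lie at 0.0314 CPM, far left of their bars.

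Genes of the amino acid response stood low in line 649 more often than high. Besides Asns, 32 of them reached 5 CPM, of which 0 were above the range (against 8.59% of all genes) and 6 below (18.8%, against 7.07%). With scaling by total counts 10 were below and 0 above. Their median difference was -0.42 on the log2 scale, against 0.01 over all genes. edgeR called none of the 34 tested, and 1 passed an unadjusted p of 0.05, against 3.66% of all genes tested. DESeq2 called Slc6a9 and limma-voom called 0. Without lines 506, 549 and 688, 1 was above, 6 were below and the median was -0.39. Without those lines 10.3% of all genes were above and 9.05% below. With all lines kept, the low median was not particular to the amino acid response. Glycolysis stood at -0.41, heat shock and immediate early genes at -0.41 and cholesterol synthesis at -0.39. The most positive median of a list was 0.82, for interferon response genes.

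Atf4, the factor at the centre of this response, stood at 254 CPM in line 649, just over the lowest of the other lines (252 to 540 CPM, with line 801 at 252). Slc6a9, a glycine transporter, stood at 3.43 CPM in line 649 and at 5.93 CPM in line 801, and the remaining lines held 11.4 to 33.8 CPM. Aldh18a1, the first enzyme of proline synthesis, stood at 104 CPM in line 649, 120 CPM in line 801 and up to 351 CPM elsewhere (lowest 111). Psph, the last enzyme of serine synthesis, stood at 27.4 CPM against 29.1 to 57.5 CPM, and Mthfd2, of mitochondrial folate metabolism, at 129 CPM against 133 to 354 CPM. Atf3, a stress factor, stood at 0.346 CPM against 0.454 to 12 CPM. Gpt2 was the remaining gene of the 6. Psat1 and Phgdh, the other enzymes of serine synthesis, were within the range at 259 CPM against 203 to 704 CPM and at 461 CPM against 455 to 823 CPM. For these genes line 801 was often the neighbour of line 649 at the low end.

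Of 21 genes of aminoacyl-tRNA synthetases, 2 were above the range, Dars and Eprs, both on chromosome 1, and 3 below, Tars, Hars and Yars. That is 9.52% above and 14.3% below, against 8.59% and 7.07% of all genes, the shares to set beside each list that follows. Tars, which charges tRNA with threonine, stood at 112 CPM in line 649 and at 139 to 185 CPM in the other lines (edgeR adjusted p = 0.728), and Eprs, which charges glutamate and proline, at 710 CPM against 349 to 630 CPM. Their median difference was -0.32. Among 19 amino acid transporters, 1 was above (5.26%) and 2 below, with a median of -0.34. Slc6a6, the taurine transporter, stood at 186 CPM in line 649 and at 257 to 416 CPM elsewhere, and Slc38a9, the lysosomal arginine sensor of mTORC1, at 19.4 CPM against 9.08 to 18.8 CPM. Slc1a5 and Slc38a2, carriers of neutral amino acids that include glutamine and asparagine, were within the range at 472 CPM against 270 to 481 CPM and at 449 CPM against 349 to 523 CPM.

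Upstream of Atf4, the eIF2 kinases were within the range. Eif2ak4, which encodes Gcn2, stood at 103 CPM in line 649 and at 59.2 to 121 CPM in the other lines. Mtor, the kinase of the growth pathway that reads amino acid supply, was above it, at 626 CPM against 99.9 to 531 CPM (edgeR adjusted p = 0.998). Of the 28 genes of eIF2 kinases and amino acid sensing, 2 were above (7.14%) and 3 below (10.7%), with a median of -0.08.

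Of 32 subunits of the respiratory chain and ATP synthase, 4 were above (12.5%) and 6 below (18.8%). The 4, among them Ndufs1, Sdhc and Cox5b, are the 4 chromosome 1 genes of that list, and the 28 genes elsewhere had 0 above. Glycolysis had 0 above and 2 below of 21 (9.52%), with Aldoa at 257 CPM in line 649 and 272 to 669 CPM elsewhere and Gpi1 at 360 CPM against 377 to 622 CPM. The Myc network and its targets had 5 above (13.9%) and 2 below (5.56%) of 36, and 4 of the 5, Ncl, Nop58, Hspe1 and Rrs1, lie on chromosome 1. Myc itself stood at 1334 CPM in line 649 and at 470 to 2721 CPM in the other lines. Cholesterol synthesis had 1 of 24 below, and serine and folate metabolism 2 above and 4 below of 19.

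The lists of B cell identity and antigen presentation were mixed, with 8.59% of all genes above and 7.07% below for comparison. Of 23 genes of mature B cells, which include MHC class II genes such as Cd74 and H2-Aa, 0 were above and 0 below. Of 14 genes shared by all B cell stages 3 were above, Pax5 and Syk among them, and 1 below, Cd79a. With scaling by total counts 1 of the 14 was above and 1 below. Of 18 genes of MHC class I presentation 4 were above (22.2%) and 1 below (5.56%), with a median of 0.72. H2-Q6 and H2-Q7, nonclassical class I genes, stood at 161 and 58.6 CPM in line 649 and at no more than 71.2 and 28.1 CPM in the other lines, and H2-K1 at 476 CPM against 34.3 to 474 CPM. H2 genes resemble each other, so their counts are uncertain. With scaling by total counts 2 of the 18 were above and 2 below. Of 17 genes of progenitor B cells 3 were above (17.6%), Myb, Bach2 and Tcf3, and 1 below, Flt3. Bach2, a repressor active in B cells, stood at 600 CPM in line 649 and at 22.7 to 507 CPM elsewhere. Of 15 genes of polycomb, trithorax and other chromatin regulators 4 were above (26.7%), Rnf2, Kmt2d, Crebbp and Ep300, and 0 below. Rnf2 lies on chromosome 1. With scaling by total counts 3 of the 15 were above and 0 below.

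Among p53 genes, Trp53 stood at 230 CPM in line 649 and at 0.0702 to 316 CPM in the other lines. Cdkn2a stood at 3.43 CPM in line 649 and at 0 to 211 CPM elsewhere, with line 801 at 206 CPM. Of 24 genes of this list 4 were above and 1 below, and 2 of the 4, Mdm4 and Btg2, lie on chromosome 1. Gapdh stood at 1261 CPM in line 649 and at 1191 to 2268 CPM elsewhere. Across all 35 lists, 48 of 531 genes at 5 CPM were above the range (9.04%, against 8.59% of all genes) and 43 below (8.10%, against 7.07%). edgeR called none of the 590 list genes tested besides Asns and Asrgl1, and 29 passed an unadjusted p of 0.05, against 3.66% of all genes tested. DESeq2 called 5 and limma-voom 1, against 79 and 23 over all 15646 genes tested besides those 2. The limma-voom call was Phlda3, at 1.48 CPM in line 649 and at most 0.132 CPM in the other lines. It entered the test only through line 649, so its call is no support for a difference.

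Line 801 was picked for its nearness, so its likeness to line 649 is a description. By Spearman rho over 500 variable genes it stood first, at 0.70. Line 506 followed at 0.61, lines 549 and 688 at 0.59, and line 504 was last at -0.17. Over 2000 genes line 801 was still the nearest, at 0.76. Over all genes with a mean of at least 1 CPM line 688 was the nearest, at 0.97, and line 801 stood at 0.96. These values share the library of line 649 and are given with no test.

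Between lines 649 and 801, each with 1 library, differences were read by size alone. A gene counted when the libraries differed by 1 or more on the log2 scale and the higher of them reached 5 CPM. Of 9870 genes, 483 were higher in line 649 (4.89%) and 423 lower (4.29%). Chromosome 13, on which line 801 had a median of -0.84 against the remaining lines, held 125 of the 483, and chromosome 1 held 59. Without these 2 chromosomes 293 genes were higher and 396 lower, and with scaling by total counts 391 were higher and 487 lower. The median log2 ratio of line 649 over line 801 was 0.86 on chromosome 13 and 0.46 on chromosome 1, and between -0.12 and 0.06 on each other chromosome.

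The 8 largest ratios toward line 649 at 20 CPM or more were in Ddx3y, Kcnk1, Kdm5d, Inadl, Klhl41, H2-Q6, Rtn4r and H2-Q7. Ddx3y and Kdm5d are Y-linked. Inadl, a scaffold of tight junctions, had 6091 counts (192 CPM) in line 649 and 52 counts (1.57 CPM) in line 801, a ratio of 122 (exact 95% interval 93.2 to 164). The other lines spanned 0.0333 to 214 CPM of Inadl, so line 649 was not alone. Klhl41, known from muscle, stood at 44.2 CPM in line 649 and 0.512 CPM in line 801, and Rtn4r, the Nogo receptor of neurons, at 21.9 CPM against 0.572 CPM. Both were above the highest of the remaining 10 lines, at 32.6 CPM for Klhl41 and 11.6 CPM for Rtn4r.

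The largest ratios toward line 801 included Cdk6, Bhlhb9, Trim32, Arhgap5, Adgrl2, Asns and Smim10l1. Cdk6, the D cyclin kinase, had 3 counts in line 649 and 3937 in line 801, a ratio of 0.000796 (exact 95% interval 0.000164 to 0.00233). It stood at 0.0943 CPM in line 649, at 0.230 CPM in line 506, 0.0375 CPM in line 688, 34.6 CPM in line 549 and 6.56 CPM in line 524, and at 56.9 to 196 CPM in the remaining lines. Bhlhb9, Arhgap5, Adgrl2 and Smim10l1 had 0 counts in line 649 and were at least 424, 308, 290 and 260-fold lower there than in line 801. For each of these 4 at least 1 of the remaining 10 lines was also at 0, whereas none was for Trim32 (at least 390-fold lower in line 649 than in line 801) and Asns (1 count in line 649 and 1200 in line 801).

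**Figure D5:**
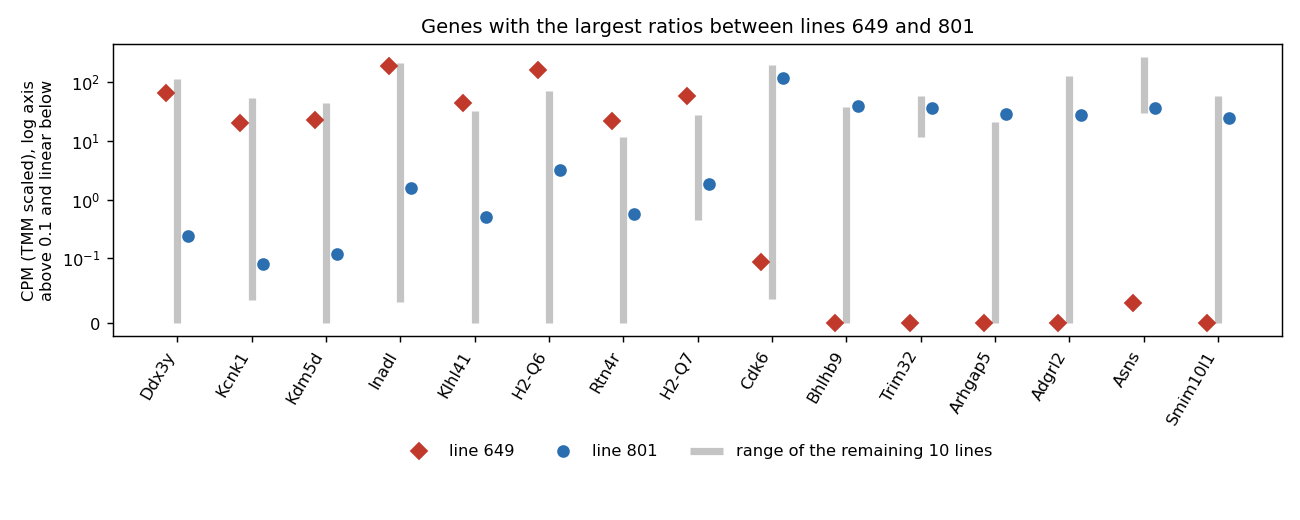
Level in CPM of 15 genes with the largest ratios, 8 higher and 7 lower in line 649, between line 649 (red diamonds) and line 801 (blue circles), with the range of the remaining 10 lines as grey bars, on an axis that is logarithmic above 0.1 CPM and linear below. Among the genes lower in line 649, Asns and Trim32 are those whose grey bar does not reach down to line 649.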

How the data were processed

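RNA was sequenced from 12 cultured Eµ-Myc lines and 2 lymphomas. The library kit was stranded and reads were paired, per the labels' protocols. The authors deposited raw, whole-number counts for each gene. The submitters' processing notes name the aligner STAR (2.4.0), the counter featureCounts (Subread 1.5.0-p3) and the build mm10 (GRCm38). For the strand setting and reads with several matches, the settings were not given in the sources used here, so overlapping genes and near-identical copies are uncertain. The 100 entries of control sequences (5 to 534 counts per library) were left out. Without molecular identifiers, the intervals and floors given hold for counting error alone.

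Line 649 was compared with 11 lines by edgeR 4.0.16 (R 4.3.3; TMM, filterByExpr on 2 groups, glmQLFit and glmQLFTest, Benjamini-Hochberg threshold 0.05, 10 residual degrees of freedom, all from the other lines). DESeq2 1.42.0 and limma 3.58.1 were alternatives. A p therefore asks whether line 649 lies outside the spread among lines, and line 649 has 1 library. Differences on the log2 scale used a prior count of 2. Figures used matplotlib 3.10.9. Promoters are from RefSeq (GRCm38.p6, the build of the table), and all 3 genes matched. The 35 lists held 718 genes, of which 714 were found.

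Members, lists and tests were chosen with earlier results of these data known. Named genes were those called that reached 10 CPM, those silent or present in line 649 alone, the asparagine list, the neighbours of Asns, a fixed set (Asns, Asrgl1, Aspg, Atf4, Myc, Trp53, Cdkn2a and Gapdh) and the 8 largest ratios each way against line 801. Other genes in the text were named after their values were seen, as were the chromosome medians. The fold changes of edgeR were checked on simulated counts, with changes placed on genes over a mean of 5 CPM. The check asked only whether the median estimated change lay near the placed one. Genes were drawn independently, without related lines or shifts of whole chromosomes, so it says nothing on how reliable the calls are. DESeq2 and limma-voom were not checked so. A few genes that these rules would name are not reported here.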

Additional observations from a re-analysis of the deposited data

How the results depend on the processing

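The 3 genes called over all genes (2 higher, 1 lower) were 3 with RLE size factors, robust moderation or the lymphomas added. They became 6 (4 higher, 2 lower) with no filter, 1 (1 higher, 0 lower) with a mean of at least 1 CPM, 81 (29 higher, 52 lower) with DESeq2 and 23 (23 higher, 0 lower) with limma-voom. Total-count scaling gave 2 (0 lower). Without the 3 lines led by Ighv5-17, and without lines 549 and 688, 0 were called (0 higher, 0 lower). Leaving out each other line in turn gave 1 to 3 calls, with 1 to 3 higher and 0 to 1 lower. The lowest count came without line 688. Asns and Asrgl1, which chose the line, were among the DESeq2 calls. Asrgl1 was also among the calls with no filter and among those without line 115 or line 801. Calls of these genes carry no test, and calls of genes that entered only through line 649 are no support for a difference. Of the amino acid response genes, 10 were below the range with total-count scaling, against 6 in the main count. Trim32 was not called with total-count scaling (adjusted p = 0.0503), a mean of at least 1 CPM (0.0539) or limma-voom (0.761). Against line 801, 747 genes were higher and 951 lower at 1 CPM (44.0% of them higher), 275 and 149 at 20 CPM (64.9%) and 293 higher without chromosomes 1 and 13, against 483 and 423 (53.3%). With total-count scaling 44.5% were higher. The rho of lines 649 and 801 was 0.96 over all genes. The cause of these moves was not tested. The counts of all genes outside the range, the genes silent or present in line 649 alone and the chromosome 1 median (0.46 to 0.53) stayed within 1.5 times or the spread between lines. No paired analysis was possible because line 649 is 1 library and the numbers of the other lines name mice.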

Other observations

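Y-linked genes, looked at after their values were seen, gave 1 more gene at 0 in line 649. Eif2s3y, the Y copy of a subunit of eIF2, had 0 counts in line 649, whereas the genes on either side of it on the Y chromosome were present. Kdm5d stood at 23 CPM, Uty at 9.47 CPM and Ddx3y at 64.7 CPM in line 649. In the other lines with Kdm5d and Ddx3y, Eif2s3y was present, at 26.5 CPM in line 136 (Ddx3y 27.7 CPM), 44.1 in line 309 (88.0), 61.5 in line 505 (88.9), 75.9 in line 517 (114) and 95.1 in line 524 (102). Uty was low in some of these lines while its neighbours were present, at 0.243 CPM (6 counts) in line 309 and 1.95 CPM in line 517, so a Y gene at or near 0 between present neighbours was not seen in line 649 alone. Lines 115, 504, 506, 549, 688 and 801 held 0 to 0.665 CPM of Ddx3y and 0 to 0.185 CPM of Eif2s3y. Eif2s3x, the X copy, stood at 321 CPM in line 649 and at 321 to 654 CPM in the other lines. Xist stood at 0.252 CPM in line 649 and at 0.0333 to 767 CPM elsewhere. Whether the gene is absent from the DNA of line 649 was not tested.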
